A study of Mus musculus with 6 samples.

Results

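The 37 genes described here make the machinery that copies DNA in S phase and the enzymes and regulators that serve it, and they were read in all 6 RNA sequencing libraries from mouse 3T3-L1 cells. They were taken as a list of mouse gene symbols, and all 37 were found by Ensembl gene identifier among the 37315 gene entries of each table. 3T3-L1 is an established line of embryo fibroblasts that behave as pre-adipocytes and can be turned into fat cells. In 1 experiment METTL3, the enzyme that writes N6-methyladenosine into mRNA, was knocked down, with 2 control and 2 knockdown libraries numbered 1 and 2 in each group and read in single-read mode. In the other, the RNA demethylase FTO was knocked down, with 1 control and 1 knockdown library read in paired-end mode. All RNA came from transiently transfected cells of 1 cell line, and the labels state neither what the control cells received nor whether replicates were separate cultures. P-values therefore measure only the spread between these libraries, which may be technical. The labels do not state what a library number stands for.

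DNA replication begins with licensing, in which the origin recognition complex, CDC6 and CDT1 load the MCM hexamer, the core of the replicative helicase, onto DNA. In S phase CDC45 and the GINS complex join it to form an active helicase, primase and DNA polymerases make the new strands, and a sliding clamp, its loader, a flap nuclease and a ligase keep the polymerases on DNA and join the fragments of the lagging strand. E2F transcription factors and cyclin E drive entry into S phase, and many replication genes are E2F targets, so their mRNA is a common readout of how strongly a culture of fibroblasts is cycling. In bulk RNA, fewer cells of a kind and less RNA per cell cannot be told apart, and this holds for cells in S phase.

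Promoter windows of 5 members show the sequence elements on which the list was compared with other genes. Each window holds 250 bases before and 50 bases from the annotated start, written 5′ to 3′ on the gene's strand, as given by RefSeq for GRCm38.p6. Capitals mark the E2F-type octamers TTTCCCGC and TTTGGCGC, the CCAAT box that NF-Y binds and the CHR-type element TTTGAA, each on either strand, so that a minus-strand match reads as GCGGGAAA, GCGCCAAA, ATTGG or TTCAAA. Mcm5, Pola1, Rpa2 and Rrm2 are shown because each had the largest difference between libraries numbered 2 and 1 in its role, and Mcm3 because it is the only member whose window holds both octamers, a choice made after the matches were seen.
Mcm5, chr8:75109259-75109558, plus strand: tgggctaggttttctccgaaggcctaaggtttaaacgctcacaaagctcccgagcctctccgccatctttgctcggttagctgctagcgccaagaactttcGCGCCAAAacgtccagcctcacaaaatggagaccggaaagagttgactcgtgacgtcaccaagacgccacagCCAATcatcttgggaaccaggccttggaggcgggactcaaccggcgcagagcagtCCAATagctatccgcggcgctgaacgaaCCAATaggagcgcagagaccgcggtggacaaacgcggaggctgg
Mcm3, chr1:20820263-20820562, minus strand: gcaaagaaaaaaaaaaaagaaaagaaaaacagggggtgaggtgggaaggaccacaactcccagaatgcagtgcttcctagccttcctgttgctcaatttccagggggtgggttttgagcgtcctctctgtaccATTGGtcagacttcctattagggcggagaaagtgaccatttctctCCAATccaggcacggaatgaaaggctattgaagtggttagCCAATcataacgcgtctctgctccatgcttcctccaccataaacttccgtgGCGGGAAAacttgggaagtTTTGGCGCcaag
Pola1, chrX:93632106-93632405, minus strand: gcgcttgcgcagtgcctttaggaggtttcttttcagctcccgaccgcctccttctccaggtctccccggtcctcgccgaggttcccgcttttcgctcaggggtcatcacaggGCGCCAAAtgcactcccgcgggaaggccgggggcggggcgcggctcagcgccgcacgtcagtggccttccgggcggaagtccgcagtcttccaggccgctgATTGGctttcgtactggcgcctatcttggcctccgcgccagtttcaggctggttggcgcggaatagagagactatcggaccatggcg
Rpa2, chr4:132768110-132768409, plus strand: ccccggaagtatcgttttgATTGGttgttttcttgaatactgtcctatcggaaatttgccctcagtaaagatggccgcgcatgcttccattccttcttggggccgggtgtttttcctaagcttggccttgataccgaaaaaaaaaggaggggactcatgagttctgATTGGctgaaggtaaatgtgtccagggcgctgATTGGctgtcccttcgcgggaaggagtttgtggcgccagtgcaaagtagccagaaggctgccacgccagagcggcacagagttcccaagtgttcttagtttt
Rrm2, chr12:24708004-24708303, plus strand: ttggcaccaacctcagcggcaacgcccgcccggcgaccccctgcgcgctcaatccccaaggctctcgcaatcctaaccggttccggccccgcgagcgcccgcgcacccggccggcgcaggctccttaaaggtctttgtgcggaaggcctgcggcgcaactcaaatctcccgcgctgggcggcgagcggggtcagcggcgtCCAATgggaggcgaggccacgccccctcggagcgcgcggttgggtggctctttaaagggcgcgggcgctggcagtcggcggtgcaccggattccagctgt

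RefSeq windows were matched for 31 of the 37 members, 37 windows in all. At least 1 E2F-type octamer lay in 11 of the 37 member windows (29.7%), in the genes Mcm3, Mcm5, Mcm6, Mcm7, Cdc6, Cdt1, Gins3, Pola1, Pold1, Rfc3 and E2f2, against 514 of all 32851 windows (1.56%). TTTCCCGC was in 6 member windows (16.2%, against 1.07% of all) and TTTGGCGC in 6 (16.2%, against 0.514% of all). A CCAAT box was in 22 member windows (59.5%, against 37.4% of all). Other cell cycle genes held these elements too, with a CCAAT box in 20 of 26 windows of mitosis genes and 24 of 50 windows of other replication genes, and an E2F-type octamer in 12 of those 50. TTTGAA, an element known from genes of mitosis, was in 5 member windows (13.5%, against 17.9% of all), in 8 of the 50 windows of other replication genes and in 19 of the 26 of mitosis genes, where an E2F-type octamer was in 0. These matches describe letters only, and no binding was measured.

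Before the results, the targeted genes were checked. Mettl3 stood at 25.1 and 28.9 CPM (counts scaled by TMM-corrected library size) in control libraries 1 and 2 and at 7.68 and 6.55 CPM in the knockdown libraries, which do not overlap the controls. Its log2 difference was -1.92 ± 0.15 (SE; edgeR adjusted p = 0.161), and Fto stood at 155 CPM in its control library and at 49.6 CPM after its own knockdown, in 1 library each. Library totals were 41773967 to 44580722 reads in the METTL3 experiment and 28348179 and 29321128 in the FTO experiment, so that a count of 0 allows up to 0.0673 to 0.106 CPM (3 reads). Markers of pre-adipocytes and fibroblasts summed to 29155 to 33109 CPM in the METTL3 libraries and to 12498 and 16690 CPM in the FTO libraries. Markers of fat cells, epithelium and endothelium summed to at most 1.57 CPM in any library, those of macrophages to 6.01 to 9.87 CPM and those of muscle to 7.61 to 18.2 CPM, with Epcam, Krt18 and Myod1 at 0 throughout.

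All 37 members were above 1 CPM in all 6 libraries, and all 37 passed the filter on low counts of the METTL3 experiment. Levels per gene length, taken from the authors' RPKM (reads scaled by gene length and library size), were highest by the mean over the 6 libraries for Mcm2, a subunit of the MCM hexamer, with 45.5 and 57.8 RPKM in the controls and 53.6 and 69.8 RPKM in the METTL3 knockdowns. The order changed between libraries, since Mcm5 was above Mcm2 in control library 2 (61.8 RPKM) and knockdown library 2 (70.3 RPKM), and Mcm4 and Pcna were above it in both FTO libraries. By the same mean they were lowest for E2f2, an E2F activator, with 0.392 and 0.621 RPKM in the controls and 0.634 and 0.922 RPKM in the knockdowns, although Fen1 was below it in knockdown library 2. Pcna, the sliding clamp, reached 37.4 to 53.5 RPKM over the METTL3 libraries and Fen1, the flap nuclease, 0.527 to 0.776 RPKM. Fen1 overlaps genes on the other strand, so its level is uncertain.

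The first comparison asked how the replication genes stood in METTL3 knockdown against control cells. Summed over the 37 members, levels were 1701 and 2470 CPM in control libraries 1 and 2 and 1941 and 2917 CPM in knockdown libraries 1 and 2. The groups overlapped, since both libraries numbered 2 lay above both numbered 1, and within each number the knockdown lay above its control. Of the 37 members, 35 had a positive log2 difference and 2 a negative one (Rfc4 and Orc6), and the median was 0.23, a fold of 1.18, against a median of 0.00 over all 13697 genes tested. No member passed an adjusted p of 0.05 in edgeR's quasi-likelihood test, which called 0.0146% of all genes at that threshold (2 genes, both higher), or in DESeq2. At an unadjusted p under 0.05 edgeR gave 1 of 37 members, Rfc3, higher in knockdown, against 11.5% of all genes (6.35% higher and 5.1% lower). Non-overlapping levels of the groups were found for 2 members, Rfc3 and E2f2, both higher in knockdown, against 43% of all genes (21% higher in knockdown). Both counts leave the library number in the spread within a group. The number took a median of 82.8% of the sum of squares over the members, against 40.7% over all genes. Neither count can therefore show whether the members changed less than other genes.

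A fit on 3 libraries holds the numbers unequally, so the number difference is mixed into the knockdown difference. The median of the knockdown difference moved with the library left out. Without control library 1 it was -0.0016 and without knockdown library 2 it was -0.14. It was 0.48 without control library 2 and 0.49 without knockdown library 1. Taken within number 1 and within number 2, the median was 0.19 and 0.24. The log2 difference stayed positive whichever library was left out for 11 members: Cdt1, Mcm2, Mcm3, Mcm10, Gins1, Pola2, Prim1, Pole, Rfc3, E2f1 and E2f2. For a single value, 2 libraries against 2 cannot give an exact two-sided permutation p below 0.333.

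**Figure D1:**
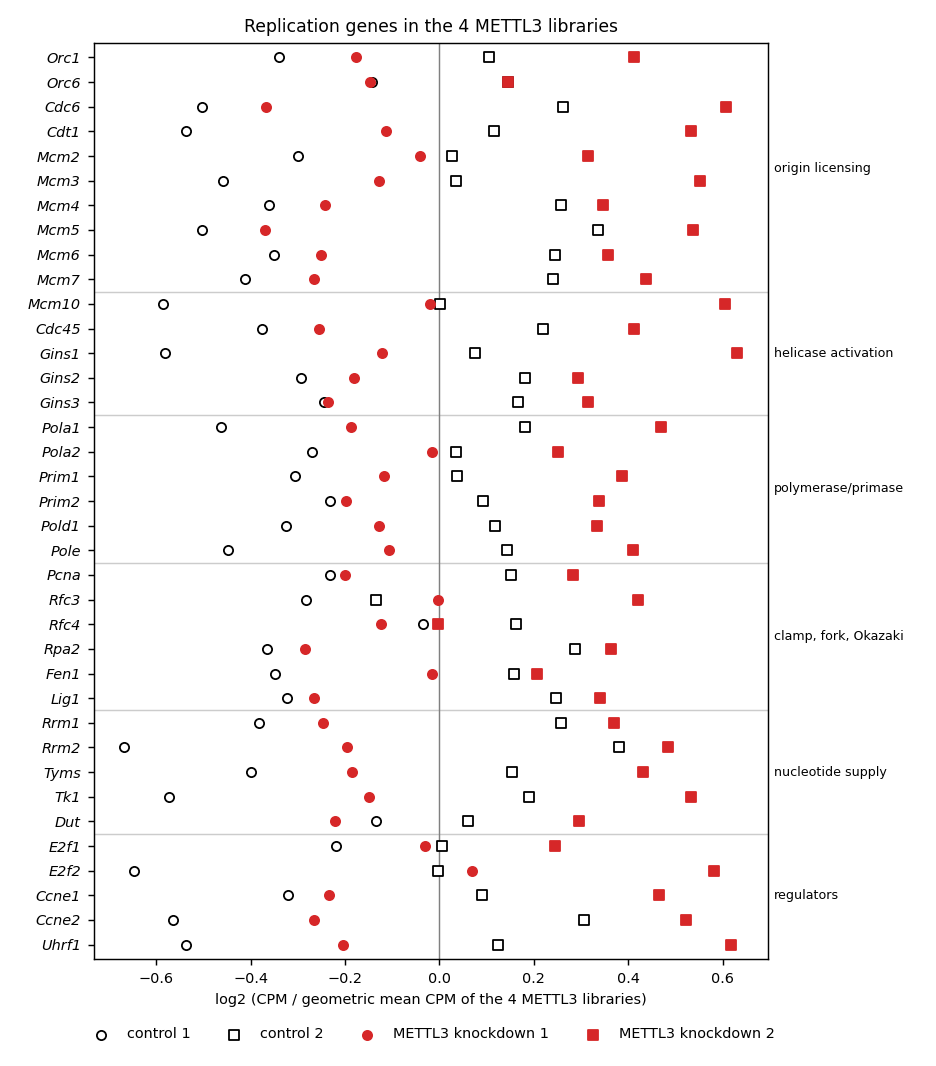
Level of each of the 37 replication genes in the 4 METTL3 libraries, as log2 of CPM over the gene's geometric mean, with open symbols for controls, filled for knockdowns, circles for number 1 and squares for number 2. Both squares lie to the right of both circles for 35 of the 37 genes, and within a shape the filled symbol lies to the right of the open one for most genes.

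The second comparison took the library-number difference apart from the knockdown. The libraries numbered 2 were higher than those numbered 1 for 37 of 37 members, with a median log2 difference of 0.59 and a range of 0.16 to 0.87, against a median of 0.01 over all genes. With group as a covariate edgeR called 35 members higher and 0 lower, beside 29.4% of all genes called, 14.9% higher and 14.5% lower. Rfc4, a subunit of the clamp loader (adjusted p = 0.451), and Fen1 (adjusted p = 0.216) did not pass. Both overlap genes with more reads, so their counts are uncertain. The difference was measured separately in each group. Between the 2 controls all 37 members were higher in number 2, with a median log2 difference of 0.57 and a range of 0.15 to 1.05. Between the 2 knockdowns all 37 were again higher, with a median of 0.61 and a range of 0.12 to 0.97. Over all genes, 37.3% were higher in number 2 within both groups. Levels of the 2 numbers did not overlap for 35 members, all but Rfc3 and E2f2 and all higher in number 2, against 46.7% of all genes (24% higher and 22.7% lower).

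This fit leaves 1 residual degree of freedom per gene, so that the spread comes largely from the other genes. Without the group covariate edgeR called 0 members and 0 genes at an adjusted p under 0.05, and 29 members and 2064 genes (15.1%) at an unadjusted p under 0.05, with the members' median again at 0.59. Depth did not follow the number, with 43254253 and 41841866 reads in control and knockdown libraries 1 and 41773967 and 44580722 reads in libraries 2. Reads of mitochondrial genes made up 0.605% and 0.679% of libraries 1 and 0.757% and 0.687% of libraries 2. Markers of pre-adipocytes and fibroblasts summed to 33109 and 32329 CPM in libraries 1 and to 31473 and 29155 CPM in libraries 2. For the number, 11 of these 12 markers were negative, with 6 called lower and 1 called higher (Dlk1), beside 14.5% and 14.9% of all genes. The part of these values in the number difference was not tested.

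Within a number, the knockdown difference was mostly positive. In number 1 the knockdown was above the control for 34 of 37 members, with a median log2 difference of 0.19 and a range of -0.09 to 0.70. For number 2 it was above the control for 36 members, with a median of 0.24 and a range of -0.16 to 0.60. The same 34 members were above in both numbers, against 38.1% of all genes, and Orc6, Rfc4 and Dut were not. Of the sum of squares among the 4 libraries, the number took a median of 82.8% over the members, the knockdown 14.9% and the remainder 0.29%, against 40.7%, 36.8% and 5.83% over all genes. The number took the largest share for 35 members and the knockdown for 2, Rfc3 and E2f2. In a layout of 2 by 2 libraries this restates which levels did not overlap and is no separate result.

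A fit with the library number as a block called 20 members higher and 0 lower in knockdown, against 14.7% of all genes called higher and 12.3% called lower, at a median log2 difference of 0.24. The labels do not say that same-numbered libraries belong together, so these 20 calls rest on a pairing taken from the numbers alone. The 35 calls for the number come from this same fit, with its 1 residual degree of freedom. They rest on the same use of the numbers. The 20 calls for the knockdown comprise 5 of the 10 licensing genes, 2 of the 5 helicase activators, 5 of the 6 polymerase and primase genes, 1 of the 6 clamp, fork and Okazaki genes, 3 of the 5 nucleotide genes and 4 of the 5 regulators.

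**Figure D2:**
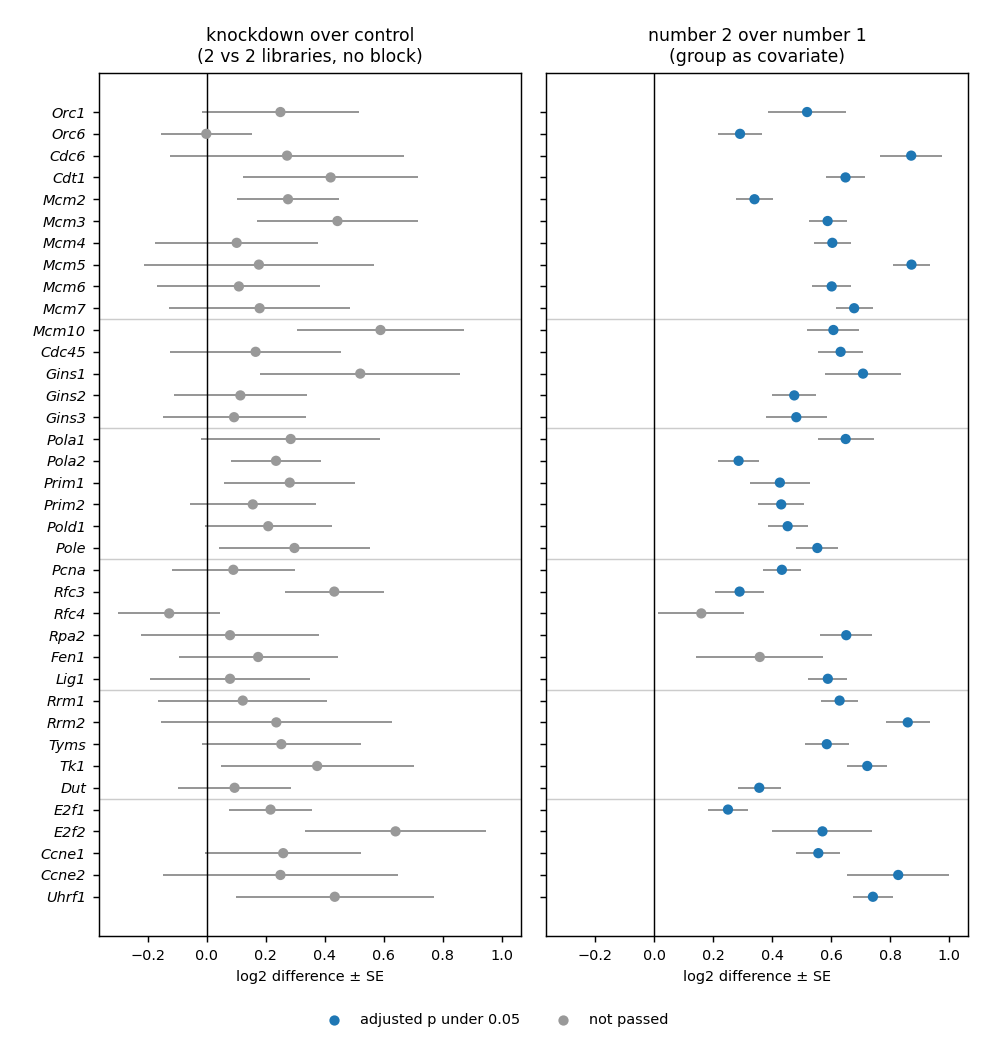
Log2 difference of each replication gene with its standard error for knockdown over control without a block (left) and for libraries numbered 2 over 1 with group as covariate (right), blue where the edgeR adjusted p was under 0.05. No gene passed on the left, and 35 of 37 passed on the right. The 2 fits differ, since the left one leaves the library number in the spread. With the number as a block the knockdown fit called 20 members, and without the group covariate the number fit called 0.

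**Figure D3:**
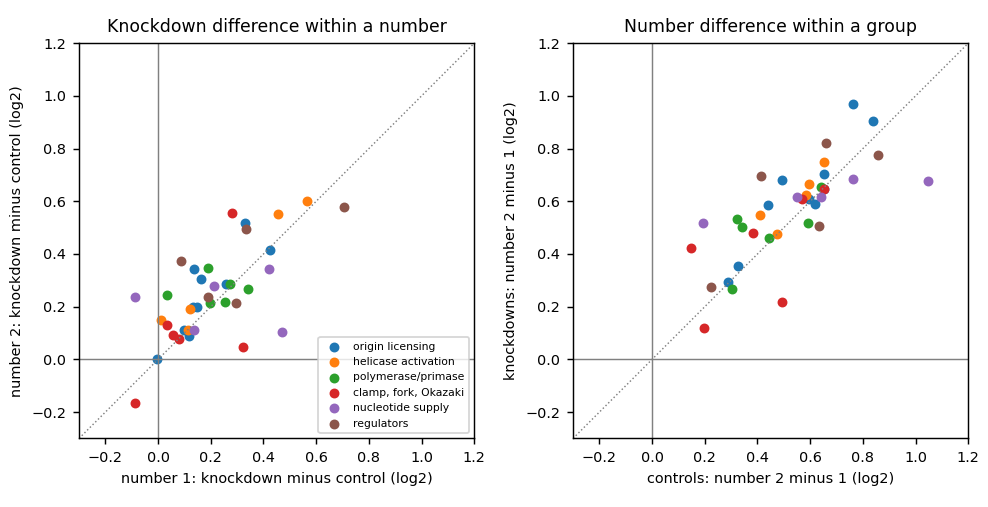
Log2 differences of the 37 genes taken within pairs of libraries, with the knockdown difference in number 2 against number 1 (left) and the number difference in knockdowns against controls (right), coloured by role. The right panel holds all 37 genes above 0 on both axes, and the left panel holds 34.

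Among the 10 licensing genes, which load the MCM hexamer, the number difference was called for all 10, with a median log2 difference of 0.60, and the knockdown difference for none, with a median of 0.21. Here and for the other roles, calls for the number come from the fit with group as covariate, which called 14.9% of all genes higher. Calls for the knockdown come from the fit without a block, which leaves the number in the spread, so the 2 counts are not on equal terms. Levels of a pair of libraries are given in the order of their numbers. Mcm5, a subunit of the hexamer, lies at chr8:75109569-75128439 on GRCm38 and stood at 127 and 227 CPM in the controls and 139 and 261 CPM in the knockdowns. The number 2 libraries were both higher than the number 1 libraries, and the groups overlapped. Its number difference was 0.87 ± 0.06 (SE; edgeR adjusted p = 1.09e-23) and its knockdown difference 0.18 ± 0.39 (SE; edgeR adjusted p = 0.899). Mcm3, another subunit, at chr1:20802968-20820312, stood at 85.2 and 119.8 CPM in the controls and 107 and 172 CPM in the knockdowns. Knockdown library 1 lay below control library 2, so the groups overlapped, and the knockdown difference was 0.44 ± 0.27 (SE; edgeR adjusted p = 0.602) beside a number difference of 0.59 ± 0.06 (SE; edgeR adjusted p = 1.53e-13). In the block fit Mcm3 was called (adjusted p = 4.54e-08) and so was Mcm5 (adjusted p = 0.0344).

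Mcm2 stood at 167 and 209 CPM in the controls and 199 and 255 CPM in the knockdowns, with a number difference of 0.34 ± 0.06 (SE; edgeR adjusted p = 4.17e-06) and a knockdown difference of 0.28 ± 0.17 (SE; edgeR adjusted p = 0.604). Its knockdown share of the sum of squares, 39.2%, was the highest in the licensing group. Cdt1, which loads the hexamer with CDC6, stood at 51.7 and 81.3 CPM in the controls and 69.4 and 109 CPM in the knockdowns, and its number difference was 0.65 ± 0.07 (SE; edgeR adjusted p = 1.11e-14). In both numbers the knockdown was above the control, by 0.42 and 0.42 on the log2 scale. Cdc6 itself stood at 9.36 and 15.9 CPM in the controls and 10.3 and 20.2 CPM in the knockdowns, and its number difference of 0.87 ± 0.10 (SE) was close to that of Mcm5. The groups overlapped for all of these.

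Mcm4, Mcm6 and Mcm7, the other hexamer subunits, had number differences of 0.60, 0.60 and 0.68 on the log2 scale and knockdown differences of 0.10, 0.11 and 0.18. Mcm4 stood at 99.6 and 153 CPM in the controls and 108 and 163 CPM in the knockdowns. Mcm6 stood at 69.1 and 104 CPM in the controls and 74.0 and 113 CPM in the knockdowns. For these 2 genes the number took 97.1% and 96.9% of the sum of squares. Mcm7 stood at 114 and 179.8 CPM in the controls and 127 and 206 CPM in the knockdowns, and its reads can be shared with Gm5487, a pseudogene 97.7% identical over 2157 bp. Orc6, a subunit of the origin recognition complex, had levels of 41.8 and 41.6 CPM in control and knockdown libraries 1 and 51.0 CPM in both libraries 2, a knockdown difference of -0.0021 ± 0.15 (SE; edgeR adjusted p = 0.998). Orc1, the largest subunit of that complex, had a knockdown difference of 0.25 and a number difference of 0.52.

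The 5 helicase activators were all called for the number (median log2 difference 0.61) and none for the knockdown (median 0.17). Mcm10, which helps to switch the loaded helicase on, lies at chr2:4989714-5012791 and stood at 15.7 and 23.5 CPM in the controls and 23.2 and 35.8 CPM in the knockdowns. Knockdown library 1 was just below control library 2, so that the groups overlapped. Its knockdown difference, 0.59 ± 0.28 (SE; edgeR adjusted p = 0.513), was nearly as large as its number difference, 0.61 ± 0.09 (SE; edgeR adjusted p = 8.28e-09), and in both numbers the knockdown was above the control, by 0.56 and 0.60. Gins1, a GINS subunit at chr2:150905400-150931280, stood at 4.83 and 7.61 CPM in the controls and 6.64 and 11.2 CPM in the knockdowns. It had a knockdown difference of 0.52 ± 0.34 (SE; edgeR adjusted p = 0.622) and a number difference of 0.71 ± 0.13 (SE; edgeR adjusted p = 4.26e-06). Both were called in the block fit, with adjusted p = 4.3e-08 for Mcm10 and 0.00114 for Gins1. Cdc45, Gins2 and Gins3 had knockdown differences of 0.17, 0.11 and 0.09 and were not called in the block fit. Gins2 shares 2758 bp with Gse1 on the other strand, and reads of the pair cannot be told apart without strand, which the sources used here do not give.

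Of the 6 polymerase and primase genes, 6 were called for the number (median log2 difference 0.44) and 0 for the knockdown (median 0.26). Pole, the catalytic subunit of the leading-strand polymerase epsilon, lies at chr5:110286306-110337474 and stood at 39.6 and 59.7 CPM in the controls and 50.2 and 71.8 CPM in the knockdowns. Its knockdown difference was 0.30 ± 0.26 (SE; edgeR adjusted p = 0.717) and its number difference 0.55 ± 0.07 (SE; edgeR adjusted p = 1.46e-10). Pola1, the catalytic subunit of polymerase alpha, which extends the primers, stood at 13.2 and 20.7 CPM in the controls and 16.0 and 25.2 CPM in the knockdowns, with the number difference largest in the group, 0.65 ± 0.09 (SE; edgeR adjusted p = 8.76e-09). The groups overlapped for both. In the block fit all but Prim2, the regulatory primase subunit, were called, and Prim1, the catalytic primase subunit, had a knockdown difference of 0.28 (block adjusted p = 0.0357). Pola2, the accessory subunit of polymerase alpha, and Pold1, the catalytic subunit of the lagging-strand polymerase delta, had knockdown differences of 0.23 and 0.21.

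The 6 genes of clamp, fork and lagging-strand joining had knockdown differences from -0.13 to 0.43 on the log2 scale, with 0 called and a median of 0.08, and 4 of 6 were called for the number, with a median of 0.40. Rfc3, a subunit of the clamp loader at chr5:151642756-151651242, stood at 25.4 and 28.1 CPM in the controls and 30.8 and 41.3 CPM in the knockdowns. Both knockdown libraries were above both controls, and its knockdown difference of 0.43 ± 0.17 (SE; edgeR adjusted p = 0.424) exceeded its number difference of 0.29 ± 0.08 (SE; edgeR adjusted p = 0.00400). The block fit called it (adjusted p = 2.53e-05). Rfc4, a second subunit of the same loader, stood at 4.94 and 5.67 CPM in the controls and 4.65 and 5.06 CPM in the knockdowns, with both knockdown libraries below the control of their number, and its knockdown difference was -0.13 ± 0.17 (SE; edgeR adjusted p = 0.825). Rpa2, a subunit of the protein that coats single-stranded DNA, stood at 18.4 and 29.0 CPM in the controls and 19.5 and 30.6 CPM in the knockdowns. Here the number took 98.6% of the sum of squares and the knockdown 1.41%, at a number difference of 0.65 ± 0.09 (SE; edgeR adjusted p = 7.88e-10). Lig1, the ligase that seals lagging-strand fragments, stood at 67.9 and 101 CPM in the controls and 70.5 and 107 CPM in the knockdowns, with a knockdown difference of 0.08 and a number difference of 0.59 ± 0.07 (SE; edgeR adjusted p = 4.61e-13). Pcna had a knockdown difference of 0.09 and a number difference of 0.43, and a pseudogene 99.2% identical over 781 bp, Pcna-ps2, held 6.31% of the reads of the pair. Fen1 had only 430 reads over the 6 libraries and overlaps Gm10143, on the other strand, by 1911 bp. It also overlaps Tmem258, on the other strand, which had 11655 reads, so the values of Fen1 are uncertain. Pseudogenes over 95% identical over at least 400 bp also exist for Uhrf1, Cdc6, Tyms and Rrm2, and Orc6, Cdc45, Mcm7, Rfc4, Lig1 and Tk1 overlap a protein-coding gene on the other strand, so that some of their reads may belong to these. The pseudogenes of Uhrf1 and Cdc6 held only 7 and 0 reads over the 6 libraries, and no count was found for those of Tyms and Rrm2. Over the 6 libraries Rfc4 had 1530 reads against 37400 for Eif4a2, which overlaps it. Orc6 had 11888 against 40903 for Vps35, and Cdc45 had 9746 against 18775 for Ufd1. For Mcm7, Lig1 and Tk1 each such gene had fewer reads than the member.

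Genes of nucleotide supply followed the number closely, with 5 of 5 called and a median log2 difference of 0.63, beside a median knockdown difference of 0.24 and 0 called. Rrm2, the small subunit of ribonucleotide reductase made in S phase, lies at chr12:24708241-24714146 and stood at 34.3 and 70.9 CPM in the controls and 47.6 and 76.2 CPM in the knockdowns. Both libraries numbered 1 lay below both numbered 2, with control library 1 the lowest, and the number difference was 0.86 ± 0.07 (SE; edgeR adjusted p = 1.12e-15). The knockdown was 0.47 above the control in number 1 and 0.10 above it in number 2 on the log2 scale, the unblocked knockdown difference being 0.24 ± 0.39 (SE; edgeR adjusted p = 0.860). Tk1, the thymidine kinase of cycling cells, stood at 44.9 and 76.2 CPM in the controls and 60.2 and 96.7 CPM in the knockdowns, with a knockdown difference of 0.37 ± 0.33 (SE; edgeR adjusted p = 0.718) and a number difference of 0.72 ± 0.07 (SE; edgeR adjusted p = 1.29e-16). It was called in the block fit (adjusted p = 3.16e-06), as were Rrm2 (adjusted p = 0.00258) and Tyms, the thymidylate synthase (adjusted p = 0.00751). Rrm1, the large subunit of the reductase, stood at 86.5 and 135 CPM in the controls and 94.9 and 146 CPM in the knockdowns. Its number difference was 0.63 ± 0.06 (SE; edgeR adjusted p = 5.21e-15) and its knockdown difference 0.12 on the log2 scale. Dut, which clears dUTP, was the only member of the group below its control in number 1, by -0.09.

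All 5 regulators were called for the number (median log2 difference 0.57) and none for the knockdown (median 0.26). E2f2, an E2F activator at chr4:136172394-136196057, had the largest knockdown difference of all members, and stood at 2.08 and 3.25 CPM in the controls and 3.42 and 4.88 CPM in the knockdowns. Both knockdown libraries lay above both controls, and its difference was 0.64 ± 0.31 (SE; edgeR adjusted p = 0.506) beside a number difference of 0.57 ± 0.17 (SE; edgeR adjusted p = 0.00573). Ccne2, a cyclin E, stood at 2.13 and 3.89 CPM in the controls and 2.62 and 4.52 CPM in the knockdowns, with a number difference of 0.83 ± 0.17 (SE; edgeR adjusted p = 5.38e-05) and a knockdown difference of 0.25 ± 0.40 (SE; edgeR adjusted p = 0.852). It shares 474 bp with Ints8 on the other strand, which had 7009 reads over the 6 libraries against 1564 for Ccne2. Uhrf1, which carries DNA methylation over to the new strand, stood at 56.9 and 89.9 CPM in the controls and 71.7 and 127 CPM in the knockdowns, and its knockdown difference was 0.43 ± 0.34 (SE; edgeR adjusted p = 0.687) beside a number difference of 0.74 ± 0.07 (SE; edgeR adjusted p = 8.84e-18). E2f1, a second E2F activator, and Ccne1, the other cyclin E, had knockdown differences of 0.22 and 0.26. The block fit called E2f2 (adjusted p = 0.00186), Uhrf1 (adjusted p = 2.28e-07), E2f1 (adjusted p = 0.00980) and Ccne1 (adjusted p = 0.0105).

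The third comparison asked how the same genes stood in FTO knockdown against its control, with 1 library each and so no test between the conditions. Members took 0.312% of reads in the control and 0.376% in the knockdown, and summed to 3154 and 3738 CPM. For 36 members with at least 50 reads in either library, all 36 log2 differences were positive, with a median of 0.27, a fold of 1.21, and a range of 0.05 to 0.54, where 50% of all 11432 genes were positive. No member passed 1.5-fold on the scale of log2(CPM + 1), against 6.54% of all genes, 2.58% higher and 3.96% lower. The CPM ratio lay above 1 beyond its 95% counting interval for 30 of 36 members and below 1 for 0, against 30.6% of all genes above and 31.2% below. The intervals hold counting error alone. Whether both mates of a fragment entered the count is not given in the sources used here, and the intervals are too tight if they did. The spread between FTO libraries is unknown.

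By role, FTO medians on the log2 scale ran from 0.22 for nucleotide supply to 0.37 for clamp, fork and Okazaki genes. Licensing genes had a median of 0.25, polymerase and primase genes 0.26, regulators 0.27 and helicase activators 0.28. Rfc4 (0.54) and Fen1 (0.53), the highest of the clamp, fork and Okazaki genes, overlap genes with more reads, so that median is uncertain. The ratios of Ccne2 and Gins2 share this limit. Gins1 went from 8.72 to 12.8 CPM, a ratio of 1.46 (95% counting interval 1.24 to 1.73). Mcm10 went from 27.3 to 38.7 CPM, a ratio of 1.42 (95% counting interval 1.29 to 1.55). Both are helicase activators with large ratios in the group, while Gins2 and Gins3 were near 1, with ratios of 1.06 (95% counting interval 0.962 to 1.17) and 1.09 (95% counting interval 0.946 to 1.25). Rfc4 went from 9.17 to 13.8 CPM, a ratio of 1.5 (95% counting interval 1.28 to 1.76), while Rfc3 had a ratio of 1.13 (95% counting interval 1.04 to 1.23). Fen1 had the largest ratio, 1.73 (95% counting interval 1.18 to 2.54), on only 46 and 78 reads. Rrm2 had 157 and 218 CPM, a ratio of 1.39 (95% counting interval 1.33 to 1.44), and Ccne2 14.6 and 20.2 CPM, a ratio of 1.38 (95% counting interval 1.22 to 1.57). The smallest ratios among well-counted genes were Pold1, at 1.03 (95% counting interval 0.965 to 1.11), and Mcm2, at 1.05 (95% counting interval 1.02 to 1.08). E2f2, with 44 and 35 reads, was left out by the read minimum and had a ratio of 0.810 (95% counting interval 0.504 to 1.29).

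**Figure D4:**
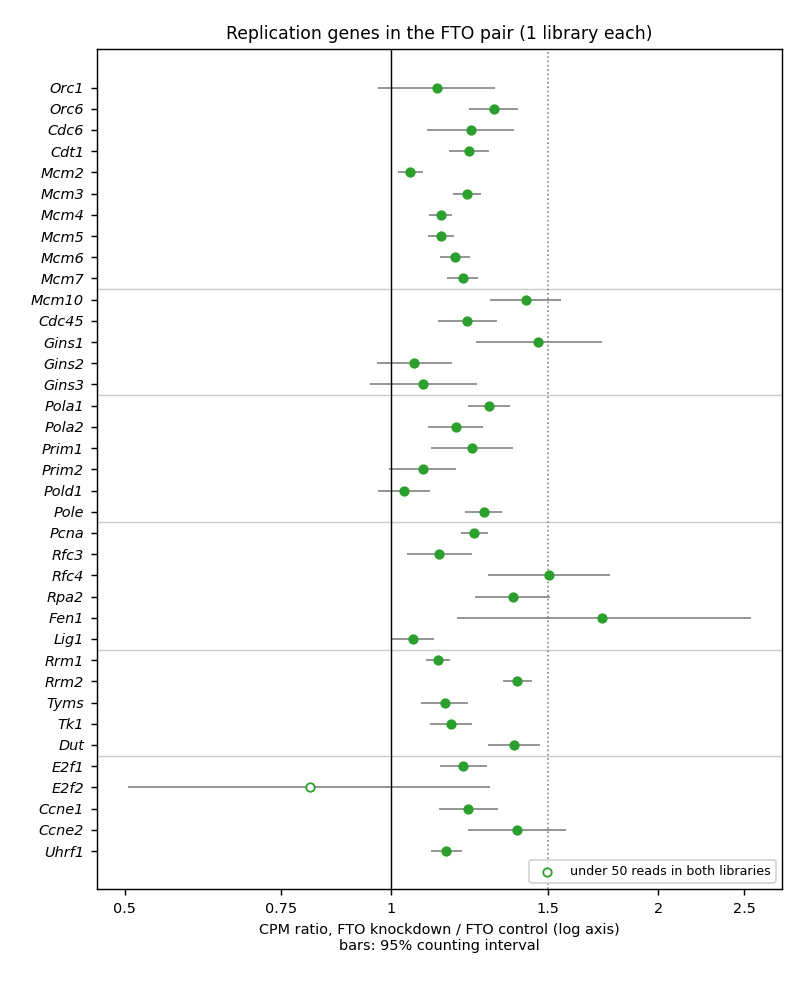
CPM ratio of FTO knockdown over FTO control for each replication gene on a log axis, with 95% counting intervals, from 1 library per condition and with a dotted line at 1.5. Of the 36 filled points, 30 have intervals above 1, and the open point is E2f2 with under 50 reads in both libraries.

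Further gene lists place these values among other cell cycle genes. Of 50 other replication genes, 40 had a positive METTL3 knockdown difference and 10 a negative one, with a median log2 difference of 0.16, 0 called and 3 at an unadjusted edgeR p under 0.05, all higher, beside the 11.5% of all genes at that threshold. The highest were Recql4 (0.71) and Chaf1b (0.56) and the lowest Orc4 (-0.06) and Mcmbp (-0.05). For the number, 49 of these 50 were positive, with a median of 0.44, and 41 were called higher and 0 lower, beside 14.9% and 14.5% of all genes. Asf1b (1.00) and E2f7 (0.97) led and Mcm9 (-0.03) and Pold4 (0.01) were last. Of 28 mitosis genes, all 28 had a positive knockdown difference, with a median of 0.27, 0 called and 0 at an unadjusted p under 0.05, from Mad2l1 (0.05) and Plk1 (0.08) to Cenpf (0.63) and Prc1 (0.64). Their number difference was called higher for 28 of 28, beside the 14.9% of all genes, with a median of 0.75, from Top2a (0.48) and Foxm1 (0.56) to Kif11 (0.95) and Ttk (0.97). Mitosis genes summed to 1420 and 1717 CPM in control and knockdown libraries 1 and to 2336 and 2797 CPM in libraries 2.

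Most genes of growth arrest, but not all, stood the other way. Of 15 tested, 4 had a positive knockdown difference and 11 a negative one, with a median log2 difference of -0.23, 0 called and 8 at an unadjusted p under 0.05 (2 higher and 6 lower, beside 6.35% and 5.1% of all genes), from Gas6 (-0.69) and Btg2 (-0.52) to Cdkn2c (0.28) and Klf9 (0.40). For the number, 2 were positive and 13 negative, with a median of -0.11, 6 called lower and 0 higher, beside 14.5% of all genes called lower and 14.9% higher. Gas6 (-0.51) and Gas1 (-0.40) were lowest and Foxo3 (0.05) and Foxo1 (0.12) highest. With the library number as a block, edgeR called 19 of the 50 other replication genes higher and 0 lower in knockdown, 20 of the 28 mitosis genes higher and 0 lower, and 4 of the 15 growth arrest genes higher and 8 lower, beside 14.7% of all genes higher and 12.3% lower. In the FTO pair, 46 of 50 other replication genes and 27 of 28 mitosis genes were positive, with medians of 0.26 and 0.29, and 13 of 15 growth arrest genes were negative, with a median of -0.48. Past 1.5-fold were 3 of the 50 replication genes, all higher (Ticrr 0.64, E2f3 0.61 and Cdc7 0.61), 0 of the 28 mitosis genes and 5 of the 15 growth arrest genes, all lower. Over all genes, 2.58% were past 1.5-fold higher and 3.96% lower. In the growth arrest list Gas6 (-1.40) and Gas1 (-1.09) were lowest and Klf9 (0.43) and Btg1 (0.44) highest. Markers of pre-adipocytes and fibroblasts moved with them, 10 of 11 being negative in the FTO pair, 6 past 1.5-fold lower (against 3.96% of all genes), at a median of -0.67, and their part in the FTO result was not tested. The lowest in the replication lists were Pold2 (-0.29) and Pold4 (-0.14), and in the mitosis list Plk1 (-0.02) and Ccnb2 (0.06), with Top2a (0.52) and Ect2 (0.57) highest.

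**Figure D5:**
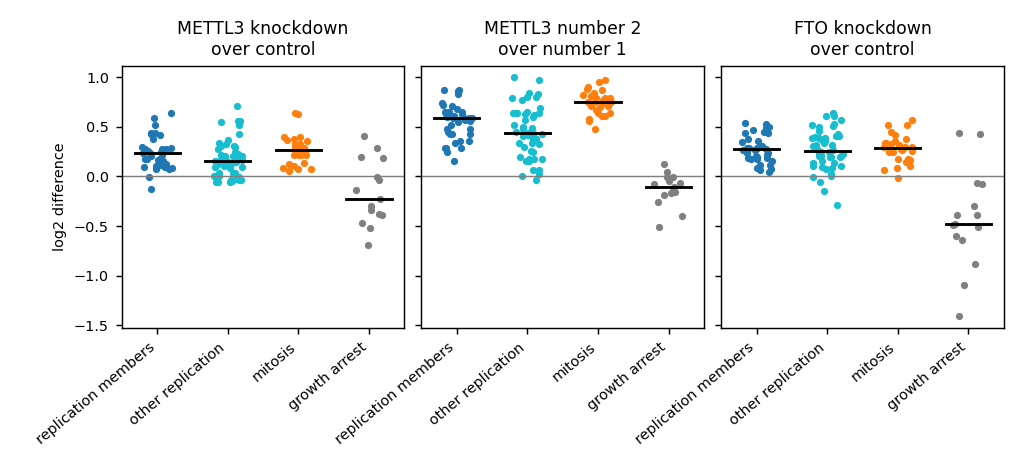
Log2 difference of each gene in 4 lists, with a bar at the median, for METTL3 knockdown over control, for METTL3 libraries numbered 2 over 1 and for FTO knockdown over control. Replication and mitosis genes lie mostly above 0 in all 3 panels and growth arrest genes mostly below.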

How the data were processed

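RNA sequencing was measured in 6 libraries of 3T3-L1 cells. Per the file headers, each deposited table holds a read count and an RPKM value per Ensembl gene. The counts were whole numbers not normalised by the authors, and the authors made the RPKM values from them with gene lengths not given in the sources used here. Per the submitters' processing notes, the tools were TopHat2 2.0.9 and bedtools and the build mm10, with no role stated, and strand handling is not given. Symbols matched 35449 of 37315 entries, and 3 repeats of a symbol were left out. Positions are from GENCODE on GRCm38.

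The METTL3 groups were compared on counts with edgeR 4.0.16 in R 4.3.3 (TMM, filterByExpr, robust quasi-likelihood fit, Benjamini-Hochberg adjustment over 13697 genes, two-sided, called at an adjusted p under 0.05). The knockdown was fitted without a block. The library number was fitted with group as covariate, and this same fit, which holds both terms, gave the block values of the knockdown. SE is the absolute log2 difference over the root of the F statistic. Levels are TMM-scaled CPM. Alternatives were DESeq2 1.42.0, limma 3.58.1, other scalings and filters, and each library left out. FTO differences are log2((CPM + 1)/(CPM + 1)) computed where 1 of the pair held 50 reads or more. The code was tested on simulated data. Replicates were no duplicates of each other (chi-square per gene 54.0 and 54.9). Values in every library were given for the members of each role with the largest knockdown or number difference, the highest and lowest RPKM, and the 12 lowest p for the number. From the other lists the 2 highest and lowest genes were named. The members, lists and rules were chosen with earlier results of these data known.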

Additional observations from a re-analysis of the deposited data

How the results depend on the processing

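Among the members, 35 called for the number stood at 35 under the other scalings and filters and both limma fits and at 28 under DESeq2, and 0 called for the knockdown stood at 0 under all of these. Without the group covariate the number fit called 0 members and 0 genes. With the replicate block, 20 members and 3706 genes were called for the knockdown. The deviations of same-numbered libraries correlated at 0.587 over 13697 genes, from only 2 pairs, and the labels give no pairing, so the block result stands as an alternative. The 35 calls for the number come from that same fit and rest on the same use of the numbers. Genes called for the knockdown, 2 in all, became 111 with no low-count filter and 239 under DESeq2, and 2 to 70 with a library left out (70 without knockdown library 1, 7 without knockdown library 2). Genes called for the number, 4031, became 1782 under DESeq2. With limma on log2 RPKM the members' median was 0.16 for the knockdown and 0.46 for the number. With a library left out the knockdown median ran from -0.14 to 0.49 and no member was called. A number fit on 3 libraries leaves no residual degree of freedom, so it gave a median of 0.57 to 0.61 and no test. Genes past 1.5-fold for FTO, 748, became 373 with a pseudocount of 5 CPM, 440 on the deposited RPKM and 128 at 2-fold, and members past it became 1, Fen1, with a pseudocount of 0.1 CPM. The number's share of the members' sum of squares was 82.8%, and 85.7% and 86.4% on library totals and log2 RPKM. Orc6 turned to 0.00482 with RLE size factors, 0.00570 with a stricter filter and 0.00478 under DESeq2, and the cause was not tested. Leaving out a library mixes the number difference into the knockdown difference. In such fits, knockdown log2 differences turned in sign for 25 members, mostly without control library 1 (17) or knockdown library 2 (23). Their lowest and highest values were -0.080 and 0.51 for Orc1, -0.16 and 0.15 for Orc6, -0.30 and 0.70 for Cdc6, -0.23 and 0.44 for Mcm4, -0.35 and 0.65 for Mcm5, -0.23 and 0.43 for Mcm6, -0.22 and 0.54 for Mcm7, -0.21 and 0.49 for Cdc45, -0.15 and 0.37 for Gins2, -0.21 and 0.34 for Gins3, -0.085 and 0.64 for Pola1, -0.14 and 0.40 for Prim2, -0.046 and 0.44 for Pold1, -0.18 and 0.31 for Pcna, -0.29 and 0.44 for Rpa2, -0.059 and 0.44 for Fen1, -0.26 and 0.39 for Lig1, -0.22 and 0.47 for Rrm1, -0.20 and 0.85 for Rrm2, -0.094 and 0.55 for Tyms, -0.012 and 0.80 for Tk1, -0.19 and 0.33 for Dut, -0.14 and 0.56 for Ccne1, -0.20 and 0.75 for Ccne2 and -0.039 and 0.80 for Uhrf1.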

Other observations

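Levels per gene length of some members are set side by side for the 2 experiments. These were read in different modes and had no library in common, so no comparison was made. Pola1 had 1.38 and 2.19 RPKM in the METTL3 controls and 7.18 RPKM in the FTO control. Ccne2 had 0.560 and 1.04 RPKM in the METTL3 controls and 3.17 RPKM in the FTO control. Rrm2 had 11.4 and 23.9 RPKM in the METTL3 controls and 43.0 RPKM in the FTO control. Pold1 had 10.4 and 14.3 RPKM in the METTL3 controls and 9.07 RPKM in the FTO control. These genes were chosen after their values were seen and do not stand for the other members.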
